A study of Mus musculus with 4 samples.

Results

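The genes described here are the 5 Rel/NF-kB subunits (Rel, Rela, Relb, Nfkb1 and Nfkb2) and 5 genes that restrain or modify them (Nfkbia, Nfkbie, Nfkbiz, Tnfaip3 and Bcl3), chosen by symbol. They are 10 of the 37140 genes listed in all 4 libraries of the series, and all 10 passed the low-count filters of the ratios and tests below. RNA was sequenced from hematopoietic stem cells (HSCs) sorted from tibiae, femora and humeri of C57Bl6 mice. One population, called HSCs below, was sorted as Lin- cKit+ Sca1+ CD48- CD150+, and the other, CD41low/CD9low HSCs, was set apart by low CD41 and CD9, which are surface proteins shared with megakaryocytes (MKs). This gate of the HSCs is that of the study's methods, which name no CD41 or CD9 limit for them. The study's results call the same population CD41+/CD9+ HSCs. Whether the HSCs also held CD41low/CD9low cells is therefore not settled by the sources used here. Each population gave 1 Gfi1b WT and 1 Gfi1b KO library, 4 in all.

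Gfi1b is a transcriptional repressor of HSCs and MKs. Per the study's methods, KO mice carried floxed Gfi1b alleles (Gfi1b fl/fl) and Rosa-CreERT2, which is active in all tissues once tamoxifen is given. The control mice (WT) were Rosa-Cre Gfi1b wt/fl animals that received tamoxifen too, whereas the deposited design text describes mice with or without ROSA-Cre. Marrow of several mice was pooled before sorting, so that 1 library stands for a pool. The methods list more control than KO mice, with tamoxifen given weeks before the experiment. Whether the populations came from the same pools is not stated in the sources used here. The sample titles read Gfi1 and the genotype labels read Gfi1b. Ages are not given in the sources used here.

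The libraries held 50781007 (HSC WT), 41690708 (HSC KO), 12732079 (CD41low/CD9low WT) and 19123185 (CD41low/CD9low KO) counts on genes, and 3 counts correspond to 0.0591, 0.0720, 0.236 and 0.157 counts per 1000000 (CPM) in that order. The targeted gene, Gfi1b, had 182.3 CPM in WT HSCs and 1197 CPM in KO HSCs. It had 48.0 CPM in WT and 509.4 CPM in KO CD41low/CD9low HSCs. Gene counts do not separate deleted from remaining exons and therefore do not check the genotype labels. Kit, the stem cell factor receptor, was at 989.2 to 1262 CPM in the 4 libraries. Itga2b, which encodes CD41, was at 546.6 and 690.6 CPM in the WT and KO libraries of HSCs, and at 136.4 and 204.9 CPM in those of CD41low/CD9low HSCs. The WT HSC library stood apart by 22 early response genes such as Fos and Jun, which many cells induce within minutes of stimulation or handling. Their summed level was 6220 CPM there, against 2352 in KO HSCs. The WT and KO libraries of the CD41low/CD9low gate had 1057 and 996 CPM.

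NF-kB is a family of dimeric transcription factors that wait in the cytoplasm, bound by IkB proteins. Signals from cytokine and Toll-like receptors activate kinases that mark IkB for degradation, and the freed dimers enter the nucleus and switch on inflammatory and survival genes. Among the induced genes are the inhibitors themselves, which makes the pathway self-limiting. In HSCs, NF-kB is known for its part in maintenance and in the response to inflammation.

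Counts were taken over the exons of each gene. In GENCODE M21 (GRCm38) the subunit genes lie at chr11:23736847-23770970 (Rel, minus strand), chr19:5637483-5648130 (Rela, plus strand), chr7:19606217-19629438 (Relb, minus strand), chr3:135584655-135691547 (Nfkb1, minus strand) and chr19:46304320-46312385 (Nfkb2, plus strand). The inhibitor genes lie at chr12:55489410-55492647 (Nfkbia, minus strand), chr17:45555703-45563169 (Nfkbie, plus strand), chr16:55811375-55838899 (Nfkbiz, minus strand), chr10:19000910-19015657 (Tnfaip3, minus strand) and chr7:19808462-19822770 (Bcl3, minus strand).

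Promoter sequences from RefSeq (GRCm38.p6) were found for 7 of the 10 genes. The entries for Relb, Nfkb1 and Nfkbiz were missing. The windows ran from 250 bases before to 50 bases after an annotated transcription start, 10 windows in all because Tnfaip3 and Nfkb2 have several starts. A match to the NF-kB consensus, searched on both strands, lay in a window of 6 of the 7 genes, Rela being the exception. Of 32851 promoters of the same length 8.46% held a match, and of 27025 genes 9.55% did in at least 1 window. For 4 of the genes, 150 bases before to 20 bases after the first listed start are shown, because these genes either differed most between KO and WT or, for Nfkbia, encode the best known inhibitor. Capitals mark the NF-kB consensus, and each sequence is read 5′ to 3′ on the strand of the gene.
Rel, chr11:23770950-23771119, minus strand: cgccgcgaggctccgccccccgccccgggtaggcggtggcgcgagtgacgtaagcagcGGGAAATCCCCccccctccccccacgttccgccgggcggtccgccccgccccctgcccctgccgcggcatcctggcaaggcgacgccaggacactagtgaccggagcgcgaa
Nfkbia, chr12:55492628-55492797, minus strand: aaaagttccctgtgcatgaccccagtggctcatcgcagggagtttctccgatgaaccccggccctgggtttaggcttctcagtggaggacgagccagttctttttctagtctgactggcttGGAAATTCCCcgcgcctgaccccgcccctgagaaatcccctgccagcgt
Tnfaip3, chr10:19015391-19015560, minus strand: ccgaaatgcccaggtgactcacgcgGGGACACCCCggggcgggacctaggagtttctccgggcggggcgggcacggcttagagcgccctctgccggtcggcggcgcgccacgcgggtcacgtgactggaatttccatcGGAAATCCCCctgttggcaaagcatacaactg
Bcl3, chr7:19822736-19822905, minus strand: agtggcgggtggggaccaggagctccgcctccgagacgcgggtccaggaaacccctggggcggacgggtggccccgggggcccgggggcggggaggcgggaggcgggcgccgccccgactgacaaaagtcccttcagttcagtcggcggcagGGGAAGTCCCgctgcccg

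In Rel 2 overlapping matches run from 92 to 82 bases before the start, and in Nfkbia a single match lies close to the start. Tnfaip3 has 2 separate matches, and in Bcl3 the match follows the start. The first listed start of Nfkb2 has 3 matches, a pair of them overlapping. Of all promoters 1.22% held 2 or more matches. The study gives AATC as the known consensus motif of GFI1B, and the longer AAATC was searched here as the Gfi1 core. AAATC was found on either strand in windows of 5 of the 7 genes, against 39.3% of all genes. Counted per promoter, 35.9% of all promoters held it, and Tnfaip3 and Nfkb2 have more than 1 window. In Rel and in Tnfaip3 an AAATC core lies inside an NF-kB match, where the letters of both motifs overlap. A match is a description of letters, and binding was not measured here.

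**Figure D1:**
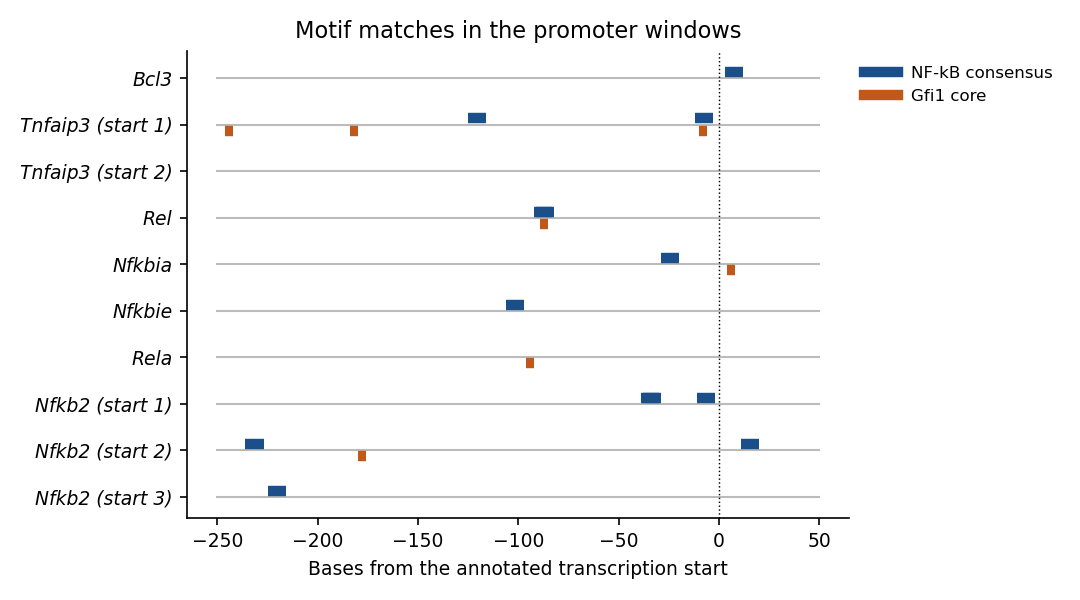
Matches to the NF-kB consensus (blue, upper marks) and the Gfi1 core (orange, lower marks) along the 10 RefSeq promoter windows of 7 genes, with distance in bases from the annotated transcription start on the x axis. The NF-kB consensus was found for 6 of the 7 genes and not for Rela.

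To compare the 10 genes with each other, counts were divided by exon length and scaled to length-normalized units (TPM, transcripts per 1000000). The length was that of all annotated exons of a gene merged, 12061 bases for Nfkb1 and 1610 for Nfkbia. The order of the genes depends on this choice. Before the division Nfkb1 had 273.5 CPM in WT HSCs and Nfkbia 94.1 CPM. Nfkbia, which encodes IkBa, the inhibitor that is resynthesized after each round of activation, had the highest TPM in every library. It was at 194.6 in WT and 225.2 in KO HSCs, and CD41low/CD9low HSCs had 224.3 in WT and 243.0 in KO. Nfkb1 (p105/p50) and Rela (p65), which form the most common dimer, followed with TPM of 63.2 to 75.5 and 60.0 to 75.1. Their order changed between libraries. Relb, the partner of the Nfkb2 product p52 in the alternative pathway, stayed between 6.16 and 8.88 TPM. Rel (c-Rel) was lowest in 3 of the 4 libraries, at 3.801, 6.99, 2.26 and 3.26 TPM with HSCs before CD41low/CD9low HSCs and WT before KO. In KO HSCs Bcl3 was lowest at 3.35 TPM. The order in the middle of the range also changed between libraries: Nfkbiz had rank 4 in HSCs of either genotype and rank 6 in CD41low/CD9low HSCs, and Nfkbie had rank 6 in WT HSCs, rank 5 in KO HSCs and rank 4 in both CD41low/CD9low libraries.

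The summed TPM of the 5 subunits was 177.8 in WT HSCs, 183.1 in KO HSCs, 160.7 in WT CD41low/CD9low HSCs and 161.5 in KO CD41low/CD9low HSCs. That of the 5 inhibitors and IkB-like genes was 327.3, 300.4, 312.2 and 319.3 in the same order. The inhibitor sum over the subunit sum was thus 1.84 in WT and 1.64 in KO HSCs, and in CD41low/CD9low HSCs 1.94 in WT and 1.98 in KO. Most of the inhibitor sum was Nfkbia. With 1 library per group these levels carry no replicate error, and the sums and their ratios also depend on the merged exon lengths.

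**Figure D2:**
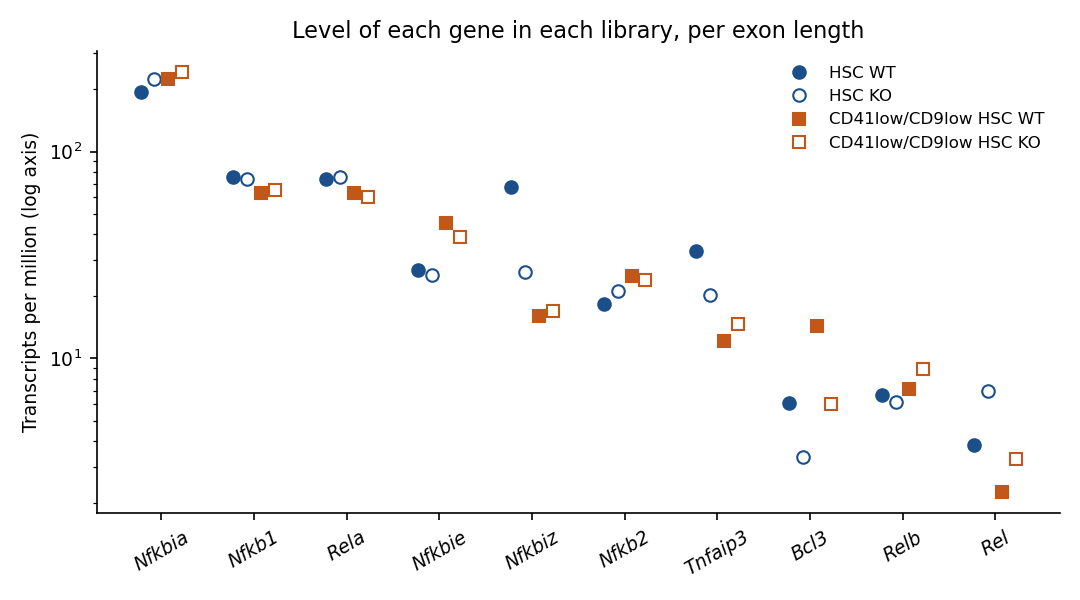
Level of each of the 10 genes in each library in TPM on a log axis; filled symbols are WT, open symbols KO, circles HSCs and squares CD41low/CD9low HSCs. Nfkbia is highest throughout (194.6 to 243.0), and the 4 points lie far apart for Nfkbiz, Tnfaip3, Bcl3 and Rel.

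The first comparison asked how loss of Gfi1b moved these genes in HSCs. Expression was lower in KO than in WT HSCs for Nfkbiz (0.383 of WT) and Bcl3 (0.542 of WT), lay at 0.605 of WT for Tnfaip3 and was higher for Rel (1.81 of WT). The other 6 genes had KO/WT ratios between 0.914 and 1.14. The ratios are of counts divided by the size factors of the pair, and the intervals are exact 95% intervals for counting error only. No test is possible with 1 library per genotype, and a ratio above 1.5 or below 0.6 was counted as past the cutoff. By this rule 1 of the 10 genes was above and 2 were below in HSCs, where 14.1% of 15910 genes were above and 10.3% below. In bulk RNA of a sorted population, fewer cells that express a gene and less RNA of it per cell cannot be told apart.

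Among the subunits, Rel had 8.53 CPM in WT and 15.2 CPM in KO HSCs. The KO/WT ratio was 1.81, with an interval of 1.60 to 2.05 that lies wholly above the cutoff, on 433 and 635 counts. Rel is the subunit best known from activated lymphocytes. The 11 MK markers, Vwf the most abundant, summed to 1453 CPM in WT and 2016 CPM in KO HSCs, with 3 above 1.5 and 1 below 0.6. Of the 11, 6 had a ratio over 1 and 5 a ratio under 1, and Itgb3 alone went from 202.5 to 663.4 CPM. The B cell markers summed to 22.6 CPM in WT and 18.6 CPM in KO HSCs, and the T and NK cell markers to 54.9 and 65.4 CPM. The part of MKs or lymphocytes in the Rel ratio was not tested. Rela was at 67.9 and 67.3 CPM in WT and KO HSCs, a ratio of 1.004 (0.955 to 1.06). Nfkb1 was at 273.5 and 259.0 CPM, a ratio of 0.960 (0.936 to 0.984) on 13889 and 10798 counts. The genes of the most common dimer were thus within a few percent of WT. Relb was at 7.74 and 6.98 CPM (ratio 0.914, 0.783 to 1.07), and Nfkb2 at 25.2 and 28.4 CPM (ratio 1.14, 1.06 to 1.24). The interval of Relb spans 1 and that of Nfkb2 does not.

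Among the inhibitors and IkB-like genes, Nfkbiz had 101.1 CPM in WT HSCs and 38.2 CPM in KO HSCs, which is 5133 and 1594 counts. Nfkbiz encodes IkBz, a nuclear IkB-like protein that acts on a second wave of NF-kB target genes. The KO/WT ratio was 0.383 (0.362 to 0.406), the lowest of the 10 genes. Tnfaip3 encodes A20, a ubiquitin-editing enzyme that shuts off signaling upstream of the IkB kinases. It was at 71.6 CPM in WT and 42.8 CPM in KO HSCs, and its ratio of 0.605 (0.572 to 0.641) falls just outside the cutoff of 0.6, which it passes when libraries are scaled by total counts. Bcl3, another nuclear IkB-like protein that works with p50 and p52 dimers, was at 4.53 and 2.42 CPM in WT and KO HSCs. Its ratio was 0.542 (0.425 to 0.688), and the interval reaches past the cutoff. The cytoplasmic inhibitors differed less. Nfkbia was at 94.1 and 105.8 CPM (ratio 1.14, 1.09 to 1.19), and Nfkbie, which encodes IkBe, at 24.4 and 22.6 CPM (ratio 0.936, 0.859 to 1.02).

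The median log2 KO/WT in HSCs was 0.01 for the 5 subunits and -0.72 for the 5 inhibitors and IkB-like genes, against 0.00 for all genes. The -0.72 is the value of Tnfaip3, and the cytoplasmic inhibitors Nfkbia and Nfkbie had ratios of 1.14 and 0.936. In HSCs the early response genes were lower in KO, as were Nfkbiz, Tnfaip3 and Bcl3. There 22 of 22 had a ratio under 1 and 20 a ratio below 0.6, with a median log2 of -1.72. In CD41low/CD9low HSCs 4 of the 19 with enough counts were below 0.6, with a median log2 of -0.31. Bcl3 was at 0.410 of WT in that population. Fos, the most abundant of them in WT HSCs, was at 1323 and 312.8 CPM in WT and KO HSCs. The part of the WT HSC library's early response in the ratios of Nfkbiz, Tnfaip3 and Bcl3 was not tested. Reads that were assigned to no annotated feature came to 80.0 per 100 counts on genes in WT HSCs and 105.3 in KO HSCs, and their part was not tested either.

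**Figure D3:**
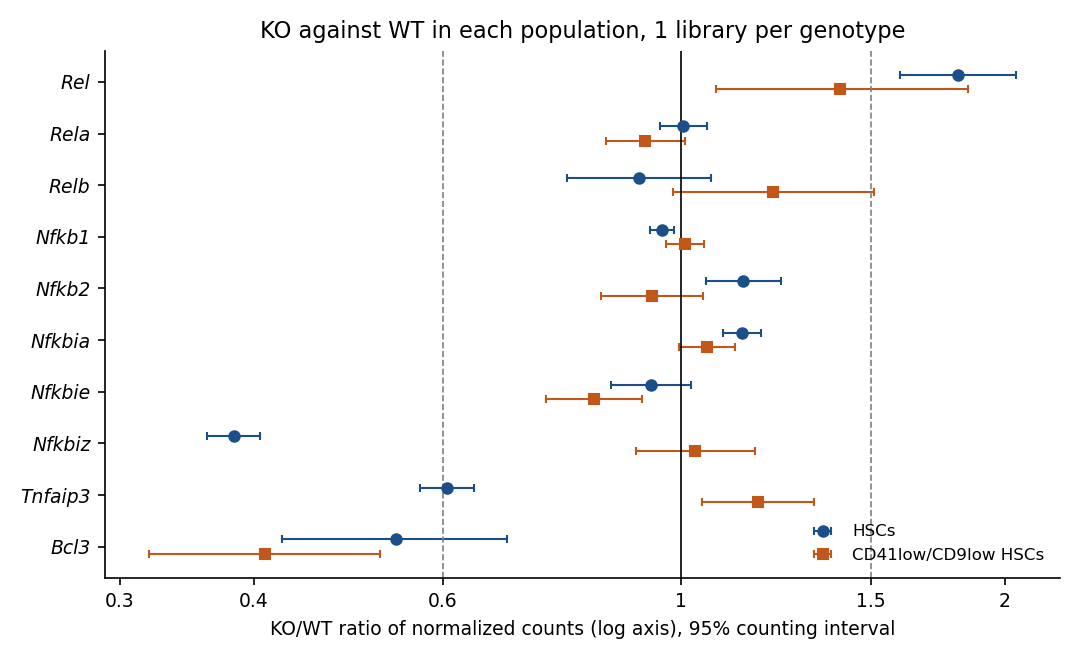
KO/WT ratio of each gene in HSCs (blue circles) and CD41low/CD9low HSCs (orange squares) on a log axis, with 95% intervals for counting error; dashed lines mark the cutoffs 0.6 and 1.5 and the solid line a ratio of 1. Bcl3 is below 0.6 in both populations, whereas Nfkbiz and Tnfaip3 are low in HSCs (0.383 and 0.605) and at 1.03 and 1.18 in CD41low/CD9low HSCs.

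In CD41low/CD9low HSCs the same comparison gave a different picture. Bcl3 was lower in KO cells (0.410 of WT), Nfkbiz was at 1.03 of WT, Tnfaip3 at 1.18 and Rel at 1.41. None of the 10 genes was above 1.5 and 1 was below 0.6, where 13.5% of 14844 genes were above and 12.0% below. The median log2 KO/WT was 0.01 for the subunits and 0.04 for the inhibitors and IkB-like genes, against 0.01 for all genes.

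Bcl3 had 13.7 CPM in WT and 5.595 CPM in KO CD41low/CD9low HSCs, on 174 and 107 counts. The ratio was 0.410 (0.319 to 0.525), and Bcl3 was the only one of the 10 genes past a cutoff in both populations. Neutrophil and monocyte genes moved with it in this population. The 10 neutrophil markers, S100a9 and S100a8 the most abundant, summed to 1141 CPM in WT and 286.6 CPM in KO, and 10 of 10 were below 0.6. In HSCs the sum was 453.6 CPM in WT and 542.7 CPM in KO, where 0 of 10 were below 0.6 and Bcl3 was low as well. Of 10 monocyte and macrophage markers 7 were below 0.6 in CD41low/CD9low HSCs (429.9 and 295.9 CPM summed in WT and KO). No marker of these lists was at 0 in any library. Of 6 erythroid markers with enough counts 5 were below 0.6 there too, the list summing to 70.2 CPM in WT and 17.9 CPM in KO, and of 4 mast cell and basophil markers 3 (32.1 and 3.97 CPM summed). The part of such cells in the Bcl3 ratio of CD41low/CD9low HSCs was not tested.

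Rel was at 6.52 and 9.15 CPM in WT and KO CD41low/CD9low HSCs on 83 and 175 counts, a ratio of 1.41 (1.08 to 1.85) that is higher in KO as in HSCs but short of the cutoff. Nfkbiz was at 31.1 and 32.0 CPM, and its ratio of 1.03 has an interval of 0.907 to 1.17. Tnfaip3 was at 34.0 and 40.0 CPM, a ratio of 1.18 (1.05 to 1.33). For Nfkbiz and Tnfaip3, the KO HSC library and both CD41low/CD9low libraries thus lay between 31.1 and 38.2 CPM and between 34.0 and 42.8 CPM, and the WT HSC library was well above, at 101.1 and 71.6 CPM. Of the other genes, Relb had a ratio of 1.22 (0.982 to 1.51), Nfkbia 1.06 (0.995 to 1.12), Nfkb1 1.01 (0.967 to 1.05), Nfkb2 0.938 (0.841 to 1.05), Rela 0.926 (0.851 to 1.01) and Nfkbie 0.829 (0.749 to 0.919). Only the interval of Nfkbie among these 6 excludes 1.

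Whether the KO/WT ratio differed between the populations could not be tested, because the model with this term leaves no residual degree of freedom. Subtracting the log2 ratio of HSCs from that of CD41low/CD9low HSCs gave 1.43 for Nfkbiz (1.23 to 1.63) and 0.96 for Tnfaip3 (0.77 to 1.15), with 95% intervals for counting error only. For the other 8 genes it lay between -0.40 (Bcl3) and 0.41 (Relb).

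An effect of genotype common to HSCs and CD41low/CD9low HSCs was fitted to all 4 libraries with edgeR's quasi-likelihood test, with population as covariate and 1 residual degree of freedom. None of the 10 genes was higher and none was lower in KO at an adjusted p-value under 0.05, where 0.535% of 14940 genes were called higher and 0.308% lower. DESeq2 called 0 of the 10 as well. At an unadjusted p-value under 0.05, 2 genes passed in edgeR, both lower in KO, where 4.36% of all genes were lower at that threshold. They were Bcl3 (log2 fold change -1.09 ± 0.42 SE, edgeR adjusted p = 0.369) and Nfkbiz (-0.70 ± 0.25 SE, edgeR adjusted p = 0.301). Rel was at 0.68 ± 0.33 SE (adjusted p = 0.524), being higher in KO in 2 of 2 populations. The fit had 1 residual degree of freedom beside 15.69 prior degrees of freedom drawn from all genes. The SEs and p-values thus rest mostly on spread borrowed from other genes. Here the populations stood in for replicates, and in the comparison of populations below the genotypes did. The p-values therefore do not measure spread between animals, and nothing in the labels says how the pools were divided.

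The next comparison set CD41low/CD9low HSCs against HSCs with genotype as covariate. Expression of 4 of the 10 genes was higher in CD41low/CD9low HSCs (Nfkbie, Bcl3, Nfkb2 and Nfkbia) and that of 2 was lower (Nfkbiz and Tnfaip3) with adjusted p-values under 0.05 by the same edgeR test. Of 14940 genes, 8.24% were called higher and 12.6% lower. DESeq2 called 2 higher and 1 lower and did not call Nfkb2 (adjusted p = 0.0974), Bcl3 (0.0824) or Tnfaip3 (0.103). The tables of the populations list different genes (4074 genes were listed for CD41low/CD9low HSCs alone and 1153 for HSCs alone), so that population and processing cannot be told apart.

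Nfkbie was at 24.4 and 22.6 CPM in HSCs and at 53.4 and 44.2 CPM in CD41low/CD9low HSCs, WT and KO in turn. The log2 difference was 0.99 ± 0.19 SE (adjusted p = 0.00159). Bcl3 was at 4.53 and 2.42 CPM in HSCs and at 13.7 and 5.595 CPM in CD41low/CD9low HSCs. Its log2 difference was 1.34 ± 0.43 SE (adjusted p = 0.0332). Nfkb2 was at 25.2 and 28.4 CPM in HSCs and at 44.1 and 41.4 CPM in CD41low/CD9low HSCs, a log2 difference of 0.62 ± 0.20 SE (adjusted p = 0.0341). Nfkbia was at 94.1 and 105.8 CPM in HSCs and at 139.5 and 147.2 CPM in CD41low/CD9low HSCs, a log2 difference of 0.46 ± 0.15 SE (adjusted p = 0.0367). These 4 genes were higher in CD41low/CD9low HSCs in 2 of 2 genotypes, and the share of all genes with that pattern was not computed. The exons of Nfkb2 share 299 bases with Psd on the opposite strand, a gene with at most 57 counts in a library, and 531 bases with AC114539.1 on the opposite strand, whose level was not analysed here.

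Nfkbiz was lower in CD41low/CD9low HSCs by a log2 difference of -1.04 ± 0.25 SE (adjusted p = 0.00743), and Tnfaip3 by -0.64 ± 0.21 SE (adjusted p = 0.0408). The call of Tnfaip3 was also lost in edgeR with RLE factors (adjusted p = 0.0526) and with a filter of 50 counts (adjusted p = 0.0629). In WT the CPM ratio of CD41low/CD9low HSCs to HSCs was 0.308 (0.277 to 0.341) for Nfkbiz and 0.475 (0.429 to 0.525) for Tnfaip3. In KO it was 0.837 (0.761 to 0.919) for Nfkbiz and 0.935 (0.858 to 1.02) for Tnfaip3. Without the WT HSC library only this KO pair remains, and the interval of Tnfaip3 then spans 1. Of the 22 early response genes 18 were also called lower in CD41low/CD9low HSCs, and their part in the differences of Nfkbiz and Tnfaip3 was not tested. Markers of other cells moved between the populations as well: 10 of 11 MK markers and 3 of 5 mast cell and basophil markers were lower in CD41low/CD9low HSCs, and of 10 neutrophil markers 5 were higher and 2 lower. Their part in the 6 differences was not tested either. The ratios of the 4 genes that were higher stayed above 1 in both genotypes and were smaller in KO. They were 2.19 in WT and 1.962 in KO for Nfkbie, 3.02 and 2.31 for Bcl3, 1.75 and 1.46 for Nfkb2, and 1.48 and 1.39 for Nfkbia.

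Rel, Relb, Rela and Nfkb1 did not pass the test between populations. Their log2 differences were -0.63 ± 0.33 SE for Rel (adjusted p = 0.207), 0.62 ± 0.34 SE for Relb (adjusted p = 0.224), 0.03 ± 0.16 SE for Rela (adjusted p = 0.926) and 0.09 ± 0.14 SE for Nfkb1 (adjusted p = 0.722), all from edgeR. Rel was at 8.53 and 15.2 CPM in HSCs and at 6.52 and 9.15 CPM in CD41low/CD9low HSCs, WT and KO in turn. Relb was at 7.74 and 6.98 CPM in HSCs and at 10.7 and 13.0 CPM in CD41low/CD9low HSCs.

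**Figure D4:**
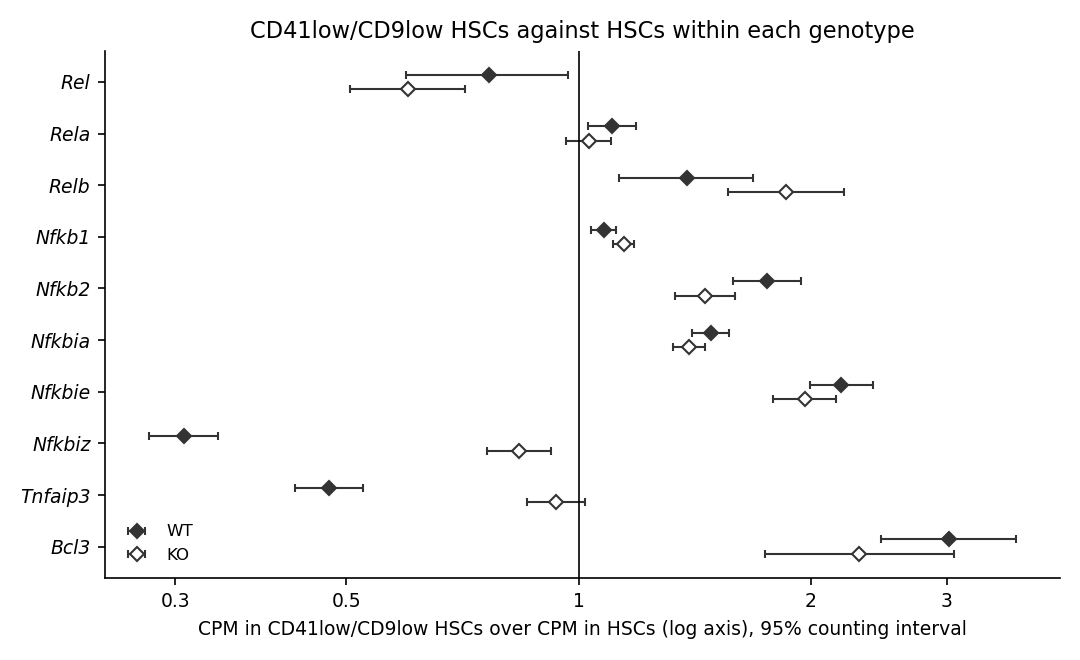
Ratio of CPM in CD41low/CD9low HSCs to CPM in HSCs within WT (filled) and within KO (open) on a log axis, with 95% intervals for counting error. Nfkbiz and Tnfaip3 lie at 0.308 and 0.475 in WT and at 0.837 and 0.935 in KO, and Nfkbie, Bcl3, Nfkb2 and Nfkbia lie above 1 in both genotypes.

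Around these 10 genes, 98 other genes of the pathway were described: 14 receptors, 30 adaptors and kinases, 18 further inhibitors and 36 target genes. In HSCs 89 passed the filter, of which 4 had a KO/WT ratio above 1.5 and 15 below 0.6, beside 14.1% and 10.3% of all genes. Of the same genes 83 passed in CD41low/CD9low HSCs, of which 6 were above and 10 below, beside 13.5% and 12.0% of all genes. The medians of log2 KO/WT over these genes were -0.08 and 0.00, against 0.00 and 0.01 for all genes. Below 0.6 in HSCs were 9 of 29 target genes, 4 of 12 receptors, 2 of 18 inhibitors and 0 of 30 adaptors and kinases, and a difference between the lists was not tested. The median log2 KO/WT of the target genes was -0.58 in HSCs, with 23 of 29 under a ratio of 1, and that of the receptors -0.28 in CD41low/CD9low HSCs. The early response genes, 22 of 22 of which were under 1 in HSCs, moved with the target genes there, and their part was not tested.

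Il1r1, the signaling receptor for interleukin-1, was the only one of 87 pathway genes in the fit called for a shared genotype effect. It had 12.3 CPM in WT and 5.01 CPM in KO HSCs. The CD41low/CD9low pair had 27.6 CPM in WT and 6.01 CPM in KO. The ratios were 0.414 (0.352 to 0.485) and 0.218 (0.175 to 0.270). The log2 fold change was -1.73 ± 0.32 SE (adjusted p = 0.0128 in edgeR and 0.0140 in DESeq2). Il18r1, an interleukin-18 receptor chain, was at 9.53 and 3.17 CPM in WT and KO HSCs (ratio 0.337, 0.276 to 0.409). It had 48 counts in WT and 1 in KO CD41low/CD9low HSCs, a ratio of 0.0139 with an interval of 0.000345 to 0.0812, and edgeR's test of a shared effect gave an adjusted p of 0.123. Tnfrsf13c, the BAFF receptor, which signals through the alternative pathway, was at 0.443 of WT in HSCs (0.336 to 0.578). The ratio was 0.627 (0.501 to 0.784) in the other population. The neutrophil and monocyte values given for Bcl3 apply to the CD41low/CD9low ratios of Il1r1 and Il18r1 too.

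Of the kinases and adaptors, Map3k14 (NIK), the kinase of the alternative pathway, was at 23.3 and 37.9 CPM in WT and KO HSCs (ratio 1.65, 1.53 to 1.78). CD41low/CD9low HSCs had 53.6 CPM in WT and 60.4 CPM in KO (ratio 1.13, 1.03 to 1.24). Map3k14 was the only one of the 30 adaptors and kinases above 1.5 in HSCs.

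Of the further inhibitors, Nfkbid and Zc3h12a were below the cutoff in HSCs. Nfkbid, another nuclear IkB-like gene, was at 22.3 and 10.6 CPM in WT and KO HSCs (ratio 0.483, 0.431 to 0.539) and at 9.98 and 14.8 CPM in the CD41low/CD9low pair (ratio 1.48, 1.20 to 1.84). Zc3h12a, which encodes the RNase Regnase-1, was at 27.3 and 14.1 CPM (ratio 0.524, 0.475 to 0.578) and at 14.6 and 14.7 CPM (ratio 1.01, 0.834 to 1.22). In each of them the WT HSC library was the highest of the 4. Tnip3, a binding partner of A20, was at 48.7 CPM in WT and 87.5 CPM in KO HSCs (ratio 1.82, 1.73 to 1.92), and at 66.1 and 41.3 CPM in the CD41low/CD9low pair (ratio 0.625, 0.566 to 0.689). Nfkbib, which encodes IkBb, had ratios of 0.725 (0.622 to 0.843) and 1.59 (1.27 to 1.997).

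Among the target genes, Ptges, a prostaglandin E synthase, was at 0.212 of WT in KO HSCs (0.139 to 0.313), and Il1b, which encodes interleukin-1 beta, one of 0.288 (0.184 to 0.438). Il1b had 35 counts in WT and 0 in KO CD41low/CD9low HSCs. That is 17.5-fold lower when 3 counts are set as the KO level, and the exact interval of the ratio ends at 0.0741. Il6 had 26 and 107 counts in WT and KO HSCs (ratio 5.08, 3.28 to 8.13) and 0 counts in both CD41low/CD9low libraries, which allows up to 0.236 and 0.157 CPM in WT and KO. The adhesion molecule Vcam1 was at 0.256 of WT in KO CD41low/CD9low HSCs (0.173 to 0.373) and the neutrophil gelatinase Mmp9 at 0.210 (0.163 to 0.268). Ier3, a survival gene that many stimuli induce, had a ratio of 1.60 (1.37 to 1.88) there and one of 0.660 (0.611 to 0.712) in HSCs. Among the 5 target genes above the cutoff in CD41low/CD9low HSCs are 4 with 0 counts in WT and 10 to 33 in KO, which are Tnf, Il1a, Ccl2 and Cd83 (named after their values were seen). These 4 genes passed the filter through the KO library alone, so that their place above the cutoff followed from the filter. With 3 counts set as the WT level they were 6.44-fold, 2.22-fold, 3.11-fold and 7.33-fold higher in KO. The exact intervals of their ratios begin lower, at 4.92, 1.49, 2.21 and 5.64, so that the ratio of Il1a is not separated from the cutoff. Beside the Mmp9 and Il1b ratios stands the drop of the neutrophil and monocyte markers given above, whose part was not tested.

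**Figure D5:**
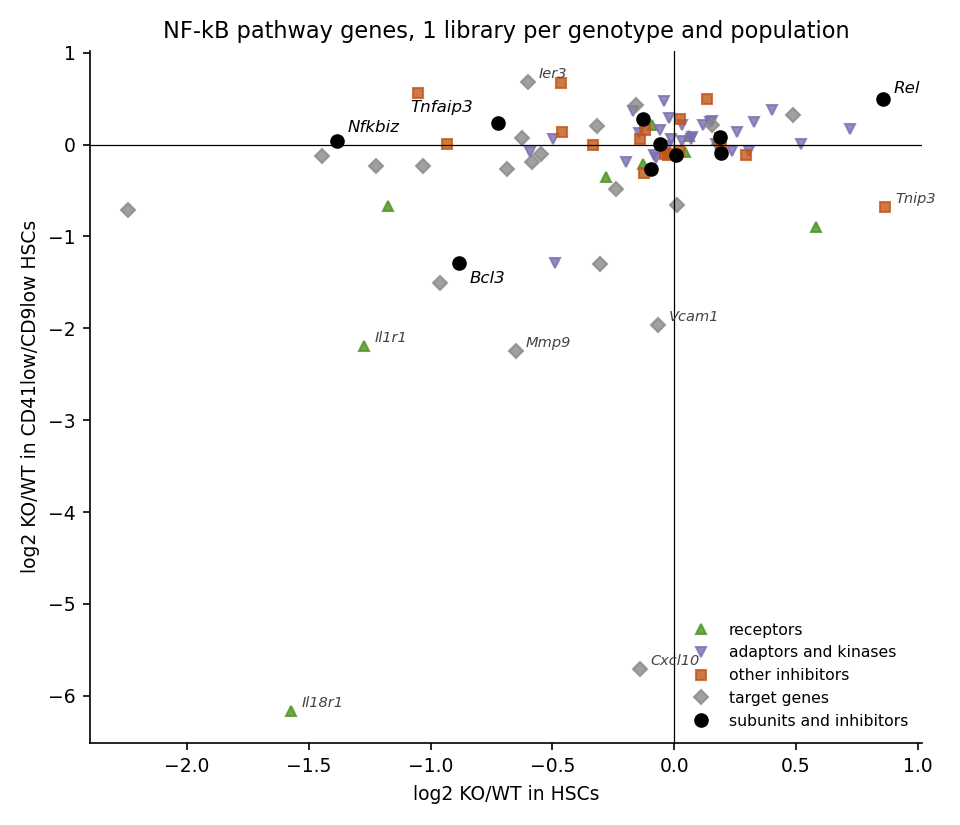
Log2 KO/WT in HSCs (x axis) against log2 KO/WT in CD41low/CD9low HSCs (y axis) for the 10 genes (black) and 78 other pathway genes. Those 78 passed the filter in both populations and had counts in all 4 libraries. The populations share no library, each point is 1 gene, and Il1r1, Il18r1 and Bcl3 are low on both axes while Nfkbiz is low on the x axis alone.

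Between the populations, 13 of the 87 other pathway genes in the fit were higher and 11 lower in CD41low/CD9low HSCs, beside 8.24% and 12.6% of all genes, with a median log2 difference of 0.03. Nfkbia, the most abundant of the 10 genes per length, was also compared with every gene of at least 100 counts in each library. Over the 4 libraries the pattern of its log2 CPM was closest to those of Man2a2, Agpat4, Cdk14, Pip5k1c and Uba7, with Euclidean distances between the centred values of 0.0217 to 0.0529 among 10166 genes. The likeness rests on 4 libraries.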

How the data were processed

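RNA was sequenced with a stranded mRNA kit (TruSeq Stranded mRNA). Per the submitters' processing notes, the authors aligned reads to mm10 with TopHat2 2.0.10 and used SAMtools, HTSeq and DESeq. They deposited raw counts per Ensembl gene, 1 table per library. Not given in the sources used here are the HTSeq version, its strand setting and the annotation release. Without the strand setting antisense reads cannot be told apart from reads of the gene. Rows that name no gene were left out. They held 60.1 to 105.3 reads without a feature, 0.443 to 0.841 ambiguous and 96.2 to 121.6 not uniquely aligned reads per 100 counts on genes.

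Ratios within a population used median-of-ratios size factors of the pair (KO/WT 0.810 and 1.5), genes that reached 10 counts in 1 or both libraries, the cutoffs 1.5 and 0.6, and Clopper-Pearson 95% intervals. Intervals and floors (3 counts) cover counting error only. Shared genotype effects and population differences were fitted with edgeR's quasi-likelihood test (4.0.16, TMM factors, Benjamini-Hochberg adjustment) on the 14940 genes that reached 10 counts in 2 or more libraries, and with DESeq2 1.42.0 as alternative, in R 4.3.3. SE is the absolute log2 fold change divided by the square root of F. TPM used GENCODE M21 exon lengths, and the ratios also entered an alternative corrected for exon length over windows of 500 genes.

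The members and lists were chosen with earlier results of these data known. Named are all 10 members. Of the other pathway genes, those were named that were called for a shared genotype effect, that were past the same cutoff in both populations, or that were among the 3 furthest from 1 per list and population, the last 2 with at least 50 counts. A result that this rule would name is not reported here. Alternatives were other size factors, filters, a pseudocount of 1 and DESeq2. Leaving out the WT HSC library was chosen after the data were seen.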

Additional observations from a re-analysis of the deposited data

Results flagged for a closer look

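Tnfaip3 lay on opposite sides of a KO/WT ratio of 1 in the 2 populations, at 0.605 in HSCs and 1.18 in CD41low/CD9low HSCs, and both intervals for counting error exclude 1. Subtracting the log2 ratio of HSCs from that of CD41low/CD9low HSCs gave 0.96, and this difference was not tested, since 1 library per group leaves no residual degree of freedom.

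Reads assigned to no gene, which enter no comparison, came to 105.3 per 100 counts on genes in KO HSCs, against 80.0 in WT HSCs. In CD41low/CD9low HSCs they came to 62.0 in WT and 60.1 in KO.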

How the results depend on the processing

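No value past a cutoff or threshold changed sign. Rela in HSCs, at a log2 KO/WT of 0.01, was at -0.01 with total counts and with size factors over all 4 libraries. The numbers of the 10 genes past the cutoffs were the same under every alternative, except that 3 genes and not 2 were below in HSCs, Tnfaip3 being added, with total counts, with the correction for exon length and with 1/1.5 as lower cutoff. With a correction for exon length the log2 KO/WT in HSCs moved to -0.82 for Tnfaip3, to 0.38 for Nfkbia and to -0.24 for Nfkb1. For the shared genotype effect, Nfkbiz passed when all genes with at least 1 count entered the fit (edgeR adjusted p = 0.0125), so that 1 of the 10 genes was called lower. Nfkbiz was at 0.383 of WT in HSCs and at 1.03 in CD41low/CD9low HSCs, so this call does not show a drop in both. Between populations DESeq2 called 2 of the 10 genes higher and 1 lower, losing Nfkb2 (adjusted p = 0.0974), Bcl3 (0.0824) and Tnfaip3 (0.103). Tnfaip3 also lost its call with RLE factors (edgeR adjusted p = 0.0526) and with at least 50 counts in 2 libraries (0.0629), which left 1 gene called lower. Without the WT HSC library, an alternative chosen after seeing the data and with no test, the log2 difference between populations was -0.26 for Nfkbiz and -0.10 for Tnfaip3, and between 0.48 and 1.21 for the 4 genes called higher.

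Counts over all genes depended on the filter. In HSCs 1431 genes were above and 792 below the cutoff with at least 50 counts, and 4354 and 2649 with no filter. In CD41low/CD9low HSCs 982 were above and 702 below with at least 50 counts, and 3121 above with no filter. For the shared genotype effect 80 genes were higher and 46 lower. The counts were 121 and 85 with total counts, 254 and 166 with all genes, and 50 and 19 with at least 50 counts, and DESeq2 called 30 lower. No paired analysis was possible because each group holds 1 library and the labels give no replicate numbers.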
